A study of Arabidopsis thaliana with 9 samples.

Results

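The 11 genes described here are Arabidopsis thaliana genes that the annotation used lists by locus code without a symbol. Their transcripts were brightest in the agl15 agl18 double mutant, intermediate in wild type and dimmest in 35S:AGL15. They were chosen from the deposited intensities themselves. A probe set (the group of short probes that reads 1 transcript on the array) qualified if it was annotated to 1 nuclear gene without a symbol and if its lowest double mutant array reached at least 1.2 times its highest wild type array. Its lowest wild type array also had to reach at least 1.2 times its highest 35S:AGL15 array, and its double mutant mean had to be at least 100. Of 22746 probe sets, 11885 carried 1 nuclear gene with a locus code only, and 11 of these met all the conditions. The order of the genotypes is therefore given by the choice, and the values below describe it without testing it.

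AGL15 is a MADS-domain transcription factor that accumulates in plant embryos and promotes the formation of somatic embryos, which are embryos that arise from vegetative tissue, usually under the synthetic auxin 2,4-D. It binds CArG-type DNA elements and is known to lower the transcription of some of its targets and to raise that of others. AGL18 is a related MADS-domain factor with overlapping function. The study set plants with constitutive AGL15, which form more somatic embryos at the shoot apex, and plants lacking AGL15 and AGL18 function, which form fewer, against wild type.

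All 3 genotypes were in the Columbia background, and each was measured on 3 arrays that the labels call biological replicates. The groups were wild type, 35S:AGL15, in which a viral promoter drives AGL15 in most tissues, and the double mutant with the insertional alleles agl15-4 and agl18-1. All had been raised from seed in shaken liquid medium that held 4.5 µM 2,4-D with 2% sucrose and 10 mM MES. Light was on for 23 h and off for 1 h in each cycle, and the cultures were harvested 10 days after they were started. The cultures hold several tissues, so fewer cells of a type and less RNA per cell cannot be told apart in any of the values.

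AGL15 itself was not analysed here, because the annotation used gives it no probe set, so the order of the genotypes and not a measured amount of AGL15 stands behind the choice. AGL18 did not share the order of the 11 genes. Its intensity was highest in wild type at 179 ± 9.55, against 81.5 ± 27.8 in the double mutant and 66.4 ± 21.3 with constitutive AGL15 (SD, n = 3). By limma its log2 difference from wild type was −1.48 in 35S:AGL15 (adjusted p = 0.0353) and −1.19 in the double mutant (adjusted p = 0.0266). In the double mutant AGL18 itself carries the insertional allele agl18-1, so its value there is not that of an intact gene. Of the 4 embryo markers, none had its means in the order of the 11 genes. OLEO3 averaged 1931, 317 and 700.4 in 35S:AGL15, wild type and the double mutant, and PAP85 243, 50.7 and 99.1 in the same order. BZIP53 was about equal in both altered genotypes (2481, 1459 and 2484), and the arrays of all genotypes overlapped for BBM (503, 485 and 506). The summed intensity of the 4 was 4625 to 5762 in 35S:AGL15, 2087 to 2650.0 in wild type and 3179 to 4448 in the double mutant. The 3 green leaf markers summed to 2717 to 3907, 3892 to 5428 and 4232 to 4952, again in that order of genotypes. They differed among themselves, since LHCB4.2 averaged 651, 830.4 and 1289.6, RCA 2295, 3236 and 3127 and PRK 446, 542 and 244. The means of LHCB4.2 were thus in the order of the 11 genes, although its 35S:AGL15 arrays (487 to 956) and wild type arrays (626 to 1023) overlapped. Both root markers, EXPA7 and EXPA18, were above background on all 9 arrays and summed to 248 to 341, 151 to 246 and 224 to 304. Of the shoot meristem markers CLV3 was above background on 0 arrays, and LAS averaged 71.4, 141 and 111. Of the stomatal markers MUTE was above background on 0 arrays and FMA on 7, with FMA averaging 29.9, 58.1 and 28. The part of these tissues in the values of the 11 genes was not tested.

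The size of the differences varied widely among the 11 genes. The ratio of the double mutant mean to the 35S:AGL15 mean ran from 2.43 to 22.8 with a median of 4.12. Between wild type and 35S:AGL15 the ratio of means ran from 1.48 to 4.56 with a median of 2.30, and between the double mutant and wild type from 1.57 to 5.01 with a median of 1.83. For 7 of the 11 genes the step from 35S:AGL15 to wild type was the larger ratio, and for 4 it was the step from wild type to the double mutant. All 9 arrays lay above background for each of the 11 genes, with background set as the brightest Bacillus control probe set of an array (13.7 to 40.5). Some 35S:AGL15 values were not far above it. AT4G00390 and AT1G21670 read 22.4 and 33.4 on replicate 1 (background 19.9), and AT1G70990 read 33.1 on replicate 3 (background 28.1). Ratios to 35S:AGL15 are less certain for such genes. The plot of intensity by array shows the 3 levels for each gene.

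**Figure D1:**
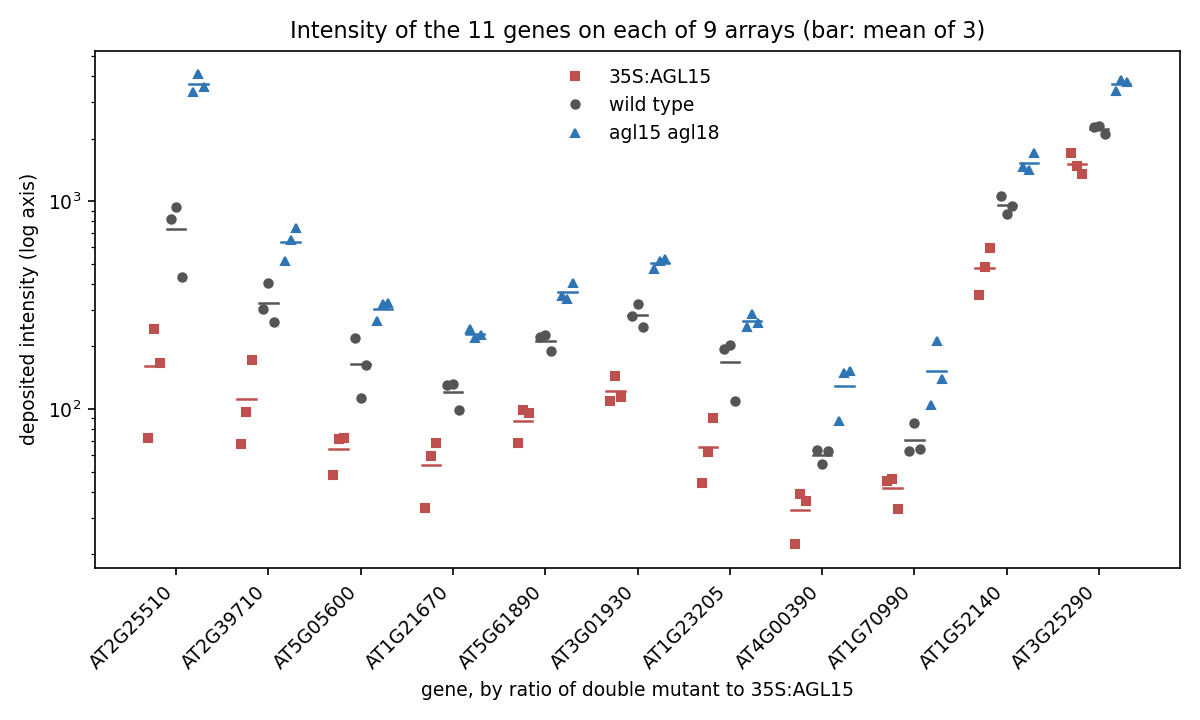
Deposited intensity (log axis) of the 11 genes, ordered by the ratio of double mutant to 35S:AGL15, with 1 point per array and a bar at the mean of 3 arrays. The ordering of the genotypes was the condition for choosing the genes, and what varies is the distance, which was widest in AT2G25510 (ratio 22.8) and narrowest in AT3G25290 (ratio 2.43).

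The reference gene table gives these loci no product name, and the protein families named below are general background on the loci and not values of the files. By family they comprise 2 DNA-binding proteins, a pair of redox enzymes, 4 proteins of the secreted, cell wall or protease classes, and a membrane transporter. No role is given for the other 2 genes. Each gene was read by 1 probe set, so no second probe set was there to set beside it.

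AT2G25510, for which no role is given, had the widest distance between the genotypes. Its intensity was 72.5, 243 and 166 in 35S:AGL15, 822, 941 and 434 in wild type and 3349.6, 4088 and 3565 in the double mutant, replicates 1 to 3 in each case. The double mutant arrays all stood far above the wild type arrays, while 3.36-fold lay between the lowest and highest 35S:AGL15 arrays and 2.17-fold between those of wild type. The means were 161 ± 85.5, 732 ± 265 and 3668 ± 379.6 (SD, n = 3). The log2 difference from wild type was −2.28 (SE 0.46) in 35S:AGL15, while the double mutant stood at 2.40 (SE 0.46), so the distances on either side of wild type were close to each other. Ranked by the log2 difference of 35S:AGL15 from the double mutant, AT2G25510 stood at place 4 from the lowest of all 22746 probe sets and at place 3 of the 12610 with a double mutant mean of at least 100.

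Of the DNA-binding proteins, AT5G61890 belongs to the AP2/ERF transcription factors, a family with members that act in ethylene and stress responses. Its intensity was 69, 98.3 and 95.3 in 35S:AGL15, 223, 226 and 189.8 in wild type and 350.0, 338 and 404 in the double mutant. Replicates lay close together in wild type and in the double mutant, and replicate 1 was the lowest of the 35S:AGL15 arrays. It was 2.43-fold higher in wild type than in 35S:AGL15 and 1.71-fold higher in the double mutant than in wild type, with log2 differences from wild type of −1.30 (SE 0.20) and 0.77 (SE 0.20). AT4G00390 belongs to the storekeeper-related (GeBP-type) DNA-binding proteins. In 35S:AGL15 its intensities were near background, and they were clear of it in wild type. They were 22.4, 39 and 36 in 35S:AGL15, 63.2, 54.3 and 62.9 in wild type and 87.2, 149.8 and 152 in the double mutant. Replicate 1 was low in both altered genotypes. Its larger step was the one to the double mutant, 2.16-fold against 1.85-fold between wild type and 35S:AGL15.

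AT5G05600 encodes a 2-oxoglutarate-dependent oxygenase of the group that hydroxylates jasmonic acid, a wound and defence hormone, and so takes part in its inactivation. Its intensity was 48.1, 71.5 and 72.6 in 35S:AGL15, 219, 113 and 163 in wild type and 264, 319 and 324 in the double mutant. Wild type spread most, from 113 to 219, and its highest array came close to the lowest double mutant array at 264. The ratio of means was 2.57 between wild type and 35S:AGL15 and 1.83 between the double mutant and wild type. AT3G25290 encodes a membrane protein of the cytochrome b561 and DOMON type, in a family described as auxin-responsive. It was far above background in every genotype, at 1698, 1473 and 1356 in 35S:AGL15, 2280.0, 2304 and 2101 in wild type and 3387, 3856 and 3755 in the double mutant. The genotypes kept apart with little spread, and the ratio of 2.43 between double mutant and 35S:AGL15 was the lowest among the 11. Its log2 differences from wild type were −0.57 (SE 0.16) and 0.72 (SE 0.16), the smallest errors of the set.

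AT2G39710 encodes an aspartyl protease. Its intensity was 67.6, 97.1 and 172 in 35S:AGL15, 304, 403 and 261 in wild type and 514, 649 and 741 in the double mutant. The 35S:AGL15 arrays spread from 67.6 to 172, and the distance between double mutant and 35S:AGL15 means was 5.66-fold, second to AT2G25510. Against wild type the log2 difference of 35S:AGL15 was −1.61 (SE 0.35), and that of the double mutant was 0.98 (SE 0.35). AT1G23205 belongs to the inhibitors of invertase and pectin methylesterase, enzymes of sugar and cell wall metabolism. Its intensity was 43.8, 62 and 90.5 in 35S:AGL15, 195, 203 and 109 in wild type and 249, 286 and 260.0 in the double mutant. Wild type replicate 3, at 109, lay only 1.201 times above the highest 35S:AGL15 array and decided how far the genotypes stood apart. Of its log2 distance between the outer genotypes, 66.1% lay below wild type, the largest such share, against 42.4% for AT1G70990, the smallest.

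AT1G70990 encodes a short proline-rich protein of the kind found in cell walls. Its intensity was 45, 46.2 and 33.1 in 35S:AGL15, 62.9, 85.3 and 64.5 in wild type and 105, 213 and 139 in the double mutant. The double mutant arrays spread by 2.04-fold, more than for any other of the 11 genes, and the ratio of means was 2.15 to wild type and 3.68 to 35S:AGL15. AT1G21670 encodes a beta-propeller protein. Its intensity was 33.4, 59.2 and 68.4 in 35S:AGL15, 131, 132 and 98.7 in wild type and 243, 219.5 and 228 in the double mutant. The double mutant arrays agreed within 1.11-fold and the 35S:AGL15 arrays spread by 2.05-fold, so the uncertainty of its 4.29-fold distance lay mainly in 35S:AGL15.

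AT3G01930 encodes a transporter-like protein of the major facilitator superfamily, membrane proteins that move small solutes. Its intensity was 109.6, 145 and 114 in 35S:AGL15, 281, 319 and 247 in wild type and 473, 515 and 529 in the double mutant. Each genotype was tight, and the log2 differences of −1.21 (SE 0.18) and 0.85 (SE 0.18) had the second smallest errors of the set. AT1G52140, for which no role is given, was well above background in every genotype. Its intensity was 353, 483 and 595 in 35S:AGL15, 1055, 866 and 949 in wild type and 1468, 1411 and 1710.1 in the double mutant, with the step to wild type (2.00-fold) larger than the step to the double mutant (1.60-fold).

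**Figure D2:**
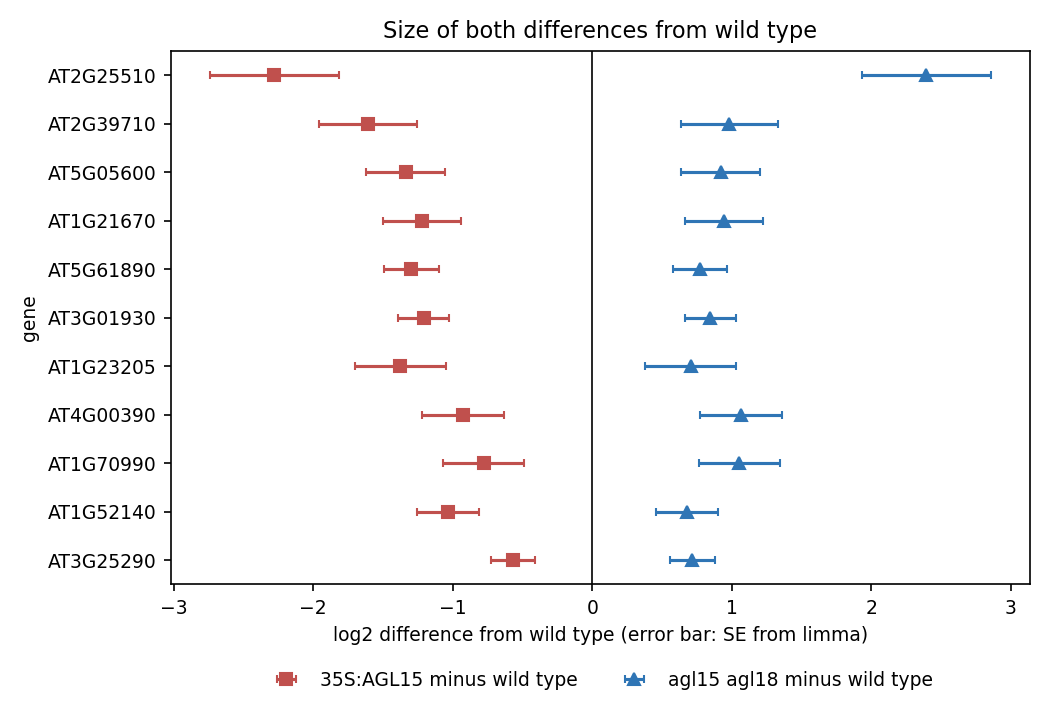
Log2 difference from wild type of each of the 11 genes in 35S:AGL15 (squares) and in the double mutant (triangles), with the standard error from limma as error bar. Squares ran from −2.28 to −0.57 and triangles from 0.68 to 2.40, and the signs follow from how the genes were chosen.

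The lowest and highest arrays of a genotype were unevenly spread over the replicates among the 11 genes. The 35S:AGL15 replicate 1 array was the lowest of its genotype for 9 of the 11 genes, whereas it was the lowest for 32.6% of all probe sets. Wild type replicate 3 was the lowest of its genotype for 7 of the 11 genes (42.5% of all probe sets), and double mutant replicate 1 for 8 (39.7%). The highest wild type array was replicate 2 for 8 genes (30.3%), and the highest 35S:AGL15 array was replicate 2 or replicate 3 for 5 genes each (46.2% and 31.7%). The conditions used the lowest or highest arrays of each genotype, so these counts describe the chosen genes and test nothing. The coefficient of variation between arrays had a median of 25.4% in 35S:AGL15, 15.6% in wild type and 10.4% in the double mutant over the 11 genes, with the highest values 53.2%, 36.2% and 36.3%. The gaps asked for limit the spread and no value over all probe sets is set beside these, so nothing is read from their order.

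The conditions were met narrowly by some genes and missed narrowly by others. Closest inside the gap between double mutant and wild type were AT5G05600 (lowest double mutant array 1.21 times the highest wild type array), AT1G70990 and AT1G23205 (1.23 each), and closest outside were AT4G19450 (1.14), AT5G41400 and AT3G43670 (1.13 each). For the gap between wild type and 35S:AGL15 the nearest inside were AT1G23205 (1.201), AT3G25290 (1.24) and AT1G70990 (1.36), and the nearest outside AT2G32190 (1.19), AT5G63690 (1.16) and AT4G36010 (1.12). For the double mutant mean they were AT4G00390 (129.6), AT1G70990 (152) and AT1G21670 (230.0) inside, and AT1G65240 (96.4), AT1G51000 (63.5) and AT5G47330 (43.7) outside. With a gap of 1.0, which asks only that the genotypes do not overlap, 52 locus-coded probe sets qualified, and with a gap of 1.5 only AT2G25510 did.

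The same intensity conditions were met by 27 of the 22746 probe sets in all. Besides the 11, 14 have no gene in the annotation and 2 have a gene symbol. These were GH3.3, an auxin-conjugating enzyme gene, at 6662 ± 1437, 9809 ± 212 and 14648 ± 2219.6 in 35S:AGL15, wild type and the double mutant, and MSRB9, a methionine sulfoxide reductase gene, at 378 ± 41.8, 736 ± 85.1 and 1459.6 ± 377 (SD, n = 3). The opposite order, 35S:AGL15 over wild type over the double mutant with the same gaps, was met by 14 locus-coded probe sets.

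By limma over all 22746 probe sets (Benjamini-Hochberg adjusted p under 0.05), 6 of the 11 genes were called lower in 35S:AGL15 than in wild type, where 2.31% of all probe sets were called lower. Again 6 of 11 were called higher in the double mutant than in wild type (3.9% of all probe sets), and 11 of 11 were lower in 35S:AGL15 than in the double mutant (5.27%). These comparisons chose the genes and share arrays, so nothing is read from the counts. The first count fell when any single array was left out. It was 0 without 35S:AGL15 replicate 1, wild type replicate 1 or wild type replicate 2, 2 without any 1 of the double mutant arrays, and 3 without wild type replicate 3. Leaving out a double mutant array did not move the log2 differences of this comparison (median −1.22). Only the error estimate shared by all arrays and the p-value adjustment could change there. Several of the 6 calls lay near the cut-off, with limma adjusted p-values of 0.0378 (AT2G25510), 0.0439 (AT5G05600), 0.0460 (AT1G52140) and 0.0482 (AT2G39710). The second was 1 without double mutant replicate 2, double mutant replicate 3 or wild type replicate 3, and 2 without wild type replicate 1 or 2. The third stayed at 11 without any single array. The choice had already set every double mutant array above every 35S:AGL15 array, so nothing is read from this. The share of all probe sets called in the same direction moved too, to 0.528% to 6.1% in the first comparison, 1.18% to 6.43% in the second and 1.49% to 8.69% in the third.

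The scaling of the arrays moved the level of the double mutant. As deposited, the median intensity of all probe sets was 132 to 142 in the double mutant, below the 188 to 199 of wild type and the 146 to 195 of 35S:AGL15. The spike-in control RNAs averaged 852 to 1374 in the double mutant, 563 to 718 in wild type and 597 to 1052 in 35S:AGL15. The bright 35S:AGL15 array was replicate 3. Against all probe sets, whose median log2 difference was −0.16 for the double mutant and −0.13 for 35S:AGL15, the 11 genes had medians of 0.92 and −1.22. That distance follows from how the genes were chosen. In 35S:AGL15 all 11 genes lay below wild type as deposited, which the choice had fixed, and under quantile normalization, median centring and spike-in scaling (medians −1.01, −0.98 and −1.40). Median centring and spike-in scaling shifted all genes alike, here by less than the smallest deposited difference (−0.57), so no sign could change under them. In the double mutant all 11 lay above wild type as deposited, again by choice, and under quantile normalization (median 1.25) and median centring (1.44). Median centring raised all 11 alike there, so it could not change a sign either. With the arrays scaled on the spike-in controls the median of all probe sets moved to −0.89, and 8 of the 11 genes lay above wild type and 3 below (median 0.19). AT1G52140 was then at −0.055, AT1G23205 at −0.027 and AT3G25290 at −0.015, while AT2G25510 stayed at 1.66.

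**Figure D3:**
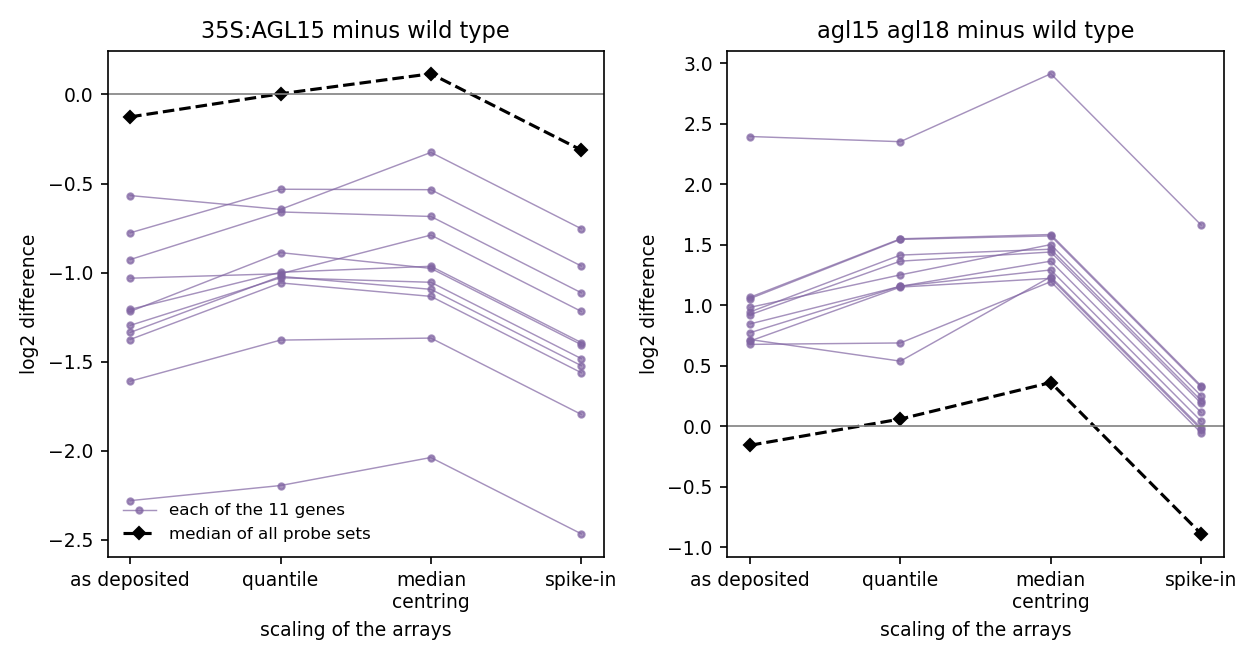
Log2 difference from wild type of each of the 11 genes (lines) and the median of all probe sets (dashed) under 4 scalings of the arrays, for 35S:AGL15 (left) and the double mutant (right). Median centring and spike-in scaling shift all genes by the same amount, whereas under quantile normalization the genes moved by different amounts. In the double mutant 3 of the 11 lay just below 0 under spike-in scaling.

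Between the double mutant and wild type, brighter spike-in controls and genotype cannot be told apart, because all 3 double mutant arrays had them and none of the wild type arrays did.

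The genes that lie next to the 11 in the genome were not used in choosing them and were compared by limma. The 22 adjacent protein-coding genes included 11 with a probe set, beside 7 of the 11 genes. None was called in 35S:AGL15 against wild type in either direction, where 2.31% of all probe sets were called lower and 1.38% higher, and the adjusted p-values of the 11 ran from 0.177 to 0.863. At an unadjusted p under 0.05 by limma, 1 of the 11 was lower and 0 were higher, where 11.6% and 6.13% of all probe sets were. In the double mutant, 2 of the 11 were called higher (3.9% of all probe sets) and 0 lower (15.0%), with 2 higher and 2 lower at an unadjusted p under 0.05 (9.97% and 24.3%). Against the double mutant, 2 of the 11 were called lower in 35S:AGL15 (5.27% of all probe sets). These were AT2G25520 (limma adjusted p = 0.0229) and AT1G70985 (0.0160).

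AT2G25520, the gene after AT2G25510 and a member of the nucleotide-sugar transporter family, had an intensity of 4172, 4692 and 4121 in 35S:AGL15, 4385, 3864 and 4043 in wild type and 7147, 7009.8 and 6667 in the double mutant. The double mutant arrays stood clear of the others, and 35S:AGL15 and wild type overlapped, so the order of the 11 genes was not shared in full. It was 1.70-fold higher in the double mutant than in wild type (log2 difference 0.76, limma adjusted p = 0.0121), a call that ended without wild type replicate 2 (0.72, adjusted p = 0.0618), under quantile normalization (0.49, adjusted p = 0.0844) and under spike-in scaling (0.03, adjusted p = 0.956).

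AT1G70985, the gene before AT1G70990, had an intensity of 7.05, 6.78 and 12.9 in 35S:AGL15, 21.9, 18.9 and 6.94 in wild type and 97.5, 61.2 and 34.3 in the double mutant. The double mutant arrays were all above background, whereas 1 of 3 wild type arrays and 0 of 3 35S:AGL15 arrays were, so no fold is given. It was called higher in the double mutant than in wild type (limma adjusted p = 0.0332). The call ended without double mutant replicate 1 (adjusted p = 0.0959) or 2 (0.0827), without wild type replicate 2 (0.0675) or 3 (0.0834), and under spike-in scaling (0.0659).

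AT1G21680, the gene after AT1G21670, had means in the order of the 11 genes, 419 ± 246, 539 ± 104 and 849 ± 312 (SD, n = 3), but the arrays overlapped. By limma its log2 difference was −0.53 in 35S:AGL15 (adjusted p = 0.597) and 0.59 in the double mutant (adjusted p = 0.431). The other 8 adjacent genes, of which AT2G25500 and AT1G71000 were at or under background on nearly all arrays, had log2 differences from wild type of −0.64 to 0.80 with constitutive AGL15. In the double mutant theirs were −0.70 to 0.10. GH9B6, a cell wall glycosyl hydrolase gene next to AT1G23205, was lower in mean intensity in both altered genotypes, at 447 ± 57.9 with constitutive AGL15 and 477 ± 43.4 in the double mutant against 706 ± 178 in wild type (SD, n = 3), with limma adjusted p-values of 0.177 and 0.121.

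**Figure D4:**
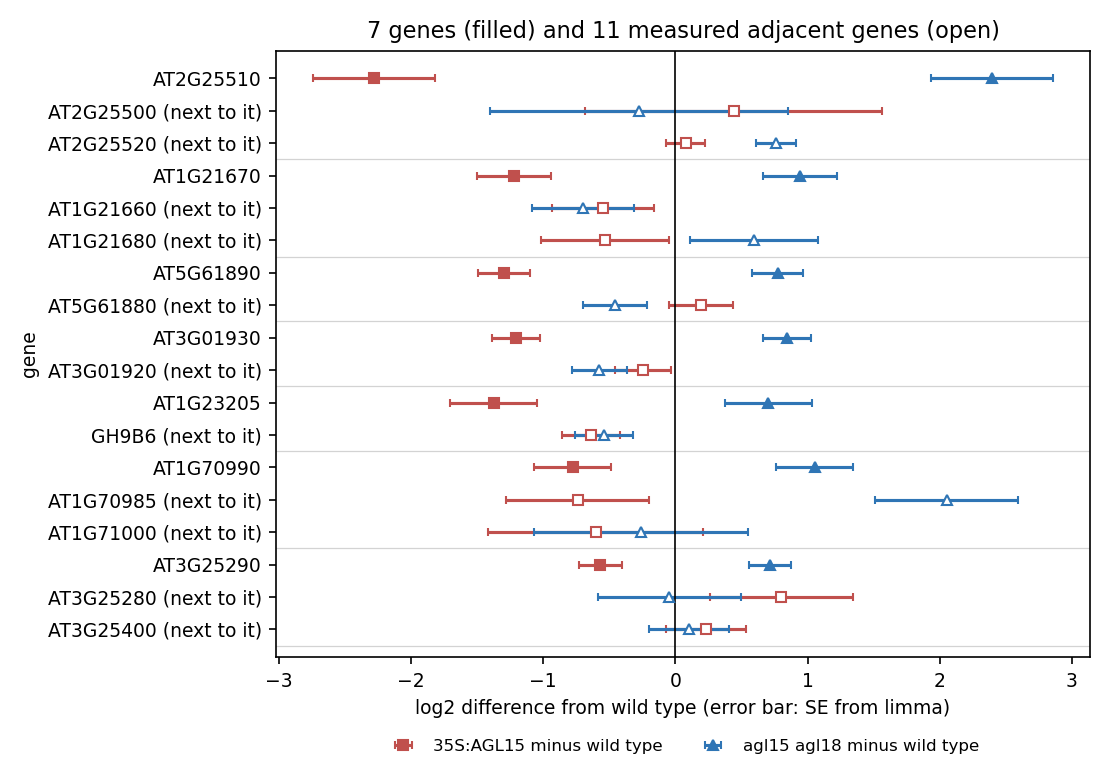
Log2 difference from wild type in 35S:AGL15 (squares) and in the double mutant (triangles), with the standard error from limma, for the 7 genes with a measured adjacent gene (filled) and for the 11 adjacent genes (open). Open triangles called higher by limma were those of AT2G25520 and AT1G70985, and no open square was called.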

How the data were processed

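Total RNA of 9 cultures was labelled with biotin from 4 µg and hybridised to Affymetrix arrays, per the labels' protocols. The authors deposited 1 linear intensity per probe set and array, from 0.0293 to 33792. How probes were summarised, by which software and with what background correction is not given in the sources used here.

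Intensities were converted to log2 as they stood. Of 22810 probe sets, 64 controls were left out. Group means were fitted with limma 3.58.1 in R 4.3.3 to all 9 arrays, and p-values are two-sided with Benjamini-Hochberg adjustment over 22746 probe sets. Folds of the 11 genes are ratios of mean intensities and log2 differences are limma's. The number of arrays limits the precision. Background was the highest of 27 Bacillus control probe sets of an array, and spike-in scaling used 18 control probe sets. Gene names came from the array annotation and the RefSeq table of assembly TAIR10.1, used for names and for which genes adjoin.

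The genes and lists were chosen with earlier results of these data known. All 11 genes, the 3 nearest to each threshold on either side and the adjacent genes are named. GH3.3 and MSRB9 were named after their values were seen. Counts by functional class and promoter motifs, planned at first, were not run, since the tables used here hold neither product names (worded synonyms exist for 18 of 11885 locus-coded probe sets) nor sequences. The fit was tested on simulated data. Alternatives were other scalings, gaps and minimum means, an offset of 32, raising low values to background, a filter on the dimmest 40%, a replicate block and leaving out each array.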

Additional observations from a re-analysis of the deposited data

How the results depend on the processing

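The number of locus-coded probe sets meeting the conditions (11) was 15 under quantile normalization, 24 under median centring and 1 under spike-in scaling, of which 6, 3 and 1 were among the 11 genes. AT2G25510 was in all of these, and AT5G61890 and AT3G01930 in the first pair. It was 52 and 1 with gaps of 1.0 and 1.5, 13 and 9 with a minimum mean of 50 and 200, and 236 with group means in place of lowest and highest arrays. Leaving out an array gave 12 to 42, with 42 without 35S:AGL15 replicate 2, 22 without wild type replicate 3 and 21 without double mutant replicate 1. Leaving out an array can only keep or widen the gaps between lowest and highest arrays. A gene that meets the gaps on single arrays also meets them on group means. All 11 genes accordingly stayed in under these settings, and nothing is read from the rise of the counts.

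By limma, the 6 genes called lower in 35S:AGL15 than in wild type (2.31% of all probe sets) became 3 under quantile normalization (1.75%), 3 under median centring (1.29%), 0 under spike-in scaling (0.761%) and 0 to 4 without single arrays. The count rose to 9 with an offset of 32 (4.24%) and to 8 with low values raised to background (3.97%). It was also 8 with the filter on the dimmest 40% (4.97% of the probe sets kept). The 6 called higher in the double mutant (3.9%) became 11 under median centring (17.9%), 10 with an offset of 32 (6.59%), 1 under spike-in scaling (0.334%) and 1 to 9 without single arrays. The 11 called lower in 35S:AGL15 than in the double mutant (5.27%) became 7 under spike-in scaling (0.624%) and 9 with that filter (11.6% of the probe sets kept), which can leave out dim genes. The median log2 difference of the double mutant from wild type, 0.92, was 1.25, 1.44 and 0.19 under quantile, median and spike-in scaling and 0.78 with an offset of 32, and the 3 genes below 0 under spike-in scaling were AT1G52140 (−0.055), AT1G23205 (−0.027) and AT3G25290 (−0.015). The causes were not tested.

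The labels number the replicates without saying whether arrays of the same number were handled together. The values gave no sign of such pairing, which cannot exclude it. Over all probe sets, 0 of 9 pairs of arrays with the same number deviated from their group means with a correlation above 0.1 (−0.09 to 0.03), and 1 of 9 arrays correlated best with its own number. With a replicate block, 1, 5 and 11 of the 11 genes were called in the 3 comparisons (0.892%, 2.4% and 2.81% of all probe sets in that direction), and the first comparison had 320 called probe sets in all in place of 838.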
